A study of Mus musculus with 6 samples.

Results

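The 32 genes described here encode the machinery of glycolysis, the handling of lactate and pyruvate, and the response to low oxygen. They were chosen by gene symbol as a functional list, with earlier results of these data known. Each of the 32 symbols has its own row in the deposited table of 55291 genes. Each of the 32 also passed the filter on low counts, which left 15478 genes for testing. RNA was sequenced from marrow flushed out of mouse femurs at an age of 6 to 8 weeks. The mice were 3 wild types, numbered WT 1 to WT 3, and 3 animals with P2rx7 knocked out, lettered A to C. Each gave 1 library, and the labels name no treatment. Values per library always follow that order. P2rx7 encodes an ion channel opened by extracellular ATP, and the series title ties it to bone ageing and to the mitochondria of mesenchymal stromal cells. Which exons are missing from the allele, how it was made, and whether the mice were littermates is not stated in the labels. The p-values below set the difference between genotypes against the spread between libraries of a genotype, each from 1 mouse.

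Glycolysis splits glucose into pyruvate in the cytosol and yields ATP without oxygen. Lactate dehydrogenase then turns pyruvate into lactate, which leaves the cell through monocarboxylate transporters, or pyruvate enters the mitochondria. The transcription factor HIF-1 alpha is marked for destruction by oxygen-dependent prolyl hydroxylases, and when oxygen is scarce it accumulates and induces most genes of this pathway. Marrow is a low-oxygen tissue, and stromal and stem cells there are known for their reliance on glycolysis. In the RNA sequenced here, globin, B cell, and T and NK cell transcripts were scarce, as given below. The levels need not be those of whole marrow in the animal.

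The libraries held 18716704 to 23575652 counts. P2rx7 was at 60.4 to 62.7 CPM (counts scaled to library size with TMM factors) in wild types and 37.5 to 39.4 CPM in knockouts, so that 62.8% of the wild-type level remained (adjusted p = 0.0109, edgeR's quasi-likelihood test). Traces of growth hormone transcript (Gh) divided the libraries: WT 1, 2, 3 and knockout A had 23 to 82 counts, and knockouts B and C had 0. Albumin transcript (Alb), made by the liver, marked the same split in reverse: knockout B held 46 counts of it, knockout C held 36, and each remaining library held 0. The libraries without Gh are both knockouts, so only knockout A separates that division from the genotype, and each leading count is given with it as well. Of 10 erythroid markers, 8 were near 0, at 0.302 CPM or less in every library. The globin gene Hbb-bs had 0 to 5 counts per library, and the erythroid anion exchanger Slc4a1 had 0 in every library. Transcripts of macrophages and of matrix-producing cells were abundant instead. C1qa, a complement gene of macrophages, was at 1530 to 1785 CPM, and Col1a1, a chain of type I collagen, was at 7715 to 10546 CPM. The other erythroid markers, Tfrc and Epor, which dividing and other cells also express, were tested. Tfrc, the transferrin receptor, was at 108 ± 1.88 CPM in wild types and 126 ± 5.53 CPM in knockouts, and Epor, the erythropoietin receptor, at 2.95 ± 0.539 and 4.58 ± 1.05 CPM (SD, n = 3), each higher at an unadjusted p below 0.05 (edgeR, adjusted p = 0.146 and 0.232). Hbb-bs and Slc4a1 were singled out after their values were seen, and the values below come from RNA in which globin transcripts were scarce. Markers of other marrow lineages were also low. Over the 6 libraries, 7 B cell markers summed to 0.902 to 1.91 CPM and 6 T and NK cell markers to 6.83 to 11.8 CPM. The sums were 57.1 to 198 CPM for 8 mature neutrophil markers and 80.5 to 555 CPM for 8 neutrophil precursor markers.

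The promoter sequences show which of the genes carry ACGTG, a form of the core letters of the hypoxia response element, the site bound by HIF-1. The 250 bases before each annotated start were read from RefSeq (GRCm38.p6), which had entries for 29 of the 32 genes, and were searched for ACGTG on both strands. The motif was in at least 1 window of 17 of the 29 genes (58.6%), against 18.5% of the 27025 genes in the whole promoter table, and 9 of the 29 had 2 or more matches in a window, against 7.76%. A CACGTG run counts as a match on each strand. Base composition was not matched, a match is not a shown binding site, and 12 genes without a match may hold the motif elsewhere. The 4 windows below were chosen because they hold at least 2 matches and belong to genes whose knockout values were lower at an unadjusted p below 0.05. They are written 5′ to 3′ on the gene's own strand, which is the plus strand in each case, with the matches in capitals. Ldha, which has a further annotated start without a match, lies on chromosome 7 (window 46845554 to 46845803), Pgk1 on chromosome X (106186850 to 106187099), Slc16a3 on chromosome 11 (120948817 to 120949066) and Hif1a on chromosome 12 (73907617 to 73907866).
Ldha: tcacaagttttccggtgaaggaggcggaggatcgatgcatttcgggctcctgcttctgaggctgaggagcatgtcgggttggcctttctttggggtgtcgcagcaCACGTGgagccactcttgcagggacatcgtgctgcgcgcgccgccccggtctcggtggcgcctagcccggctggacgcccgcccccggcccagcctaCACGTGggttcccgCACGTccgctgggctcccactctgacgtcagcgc
Pgk1: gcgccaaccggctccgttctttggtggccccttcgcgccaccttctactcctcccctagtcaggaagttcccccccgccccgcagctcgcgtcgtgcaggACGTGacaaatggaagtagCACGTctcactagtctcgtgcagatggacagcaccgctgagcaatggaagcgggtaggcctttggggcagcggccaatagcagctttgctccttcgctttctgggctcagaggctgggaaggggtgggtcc
Slc16a3: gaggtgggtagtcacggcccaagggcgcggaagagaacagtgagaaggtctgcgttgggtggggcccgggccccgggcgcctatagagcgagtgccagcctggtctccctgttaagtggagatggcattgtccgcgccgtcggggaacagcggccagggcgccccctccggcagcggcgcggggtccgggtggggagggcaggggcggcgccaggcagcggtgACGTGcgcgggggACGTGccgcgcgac
Hif1a: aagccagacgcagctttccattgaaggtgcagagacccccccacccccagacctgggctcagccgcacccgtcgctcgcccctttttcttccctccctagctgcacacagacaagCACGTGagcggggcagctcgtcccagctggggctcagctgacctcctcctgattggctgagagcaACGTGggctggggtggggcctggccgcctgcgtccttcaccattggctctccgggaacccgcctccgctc

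The Ldha window holds 5 matches, 2 pairs of them in CACGTG runs, the Hif1a window holds 3, and those of Pgk1 and Slc16a3 hold 2 each. Hk2, Pfkfb3, Pfkm, Slc16a1 and Ankrd37 also had a window with 2 matches, and none of them was lower at an unadjusted p below 0.05 (edgeR). Their log2 ratios, knockout over wild type, were -0.16, -0.07, 0.00, 0.06 and 0.00. Slc2a1, Pgam1 and Pkm had 1 match in a window, and Adm, Eno1, Gapdh, Tpi1 and Pfkl had 0 ACGTG matches in these windows. Matches to GCGTG, which differs in the first letter, were counted as well. Adm and Gapdh had 2 of these in a window, Eno1 had up to 2, Pfkl had 1 and Tpi1 had 0. The share of all genes with GCGTG was not computed. Ero1l, also lower at an unadjusted p below 0.05 (edgeR), had no promoter entry.

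Across the pathway the knockout libraries leaned low. The median log2 ratio of the 32 genes, knockout over wild type in the edgeR fit, was -0.15, against 0.00 over all tested genes, and 25 of the 32 were below 0 (48.8% of all tested genes were). None of the 32 passed an adjusted p of 0.05 in edgeR, where 0.103% of all tested genes did. Their adjusted p-values ran from 0.159 for Slc2a1 to 0.998 for Ankrd37. At an unadjusted p below 0.05, 13 of the 32 were lower in knockouts, against 8.22% of all tested genes, and 2 were higher, against 8.35%. The 13 kept 63.5% to 90.3% of the wild-type level. Because the list was chosen with earlier results of these data known, these counts describe it and are not a test. At an adjusted p below 0.05, in either direction, DESeq2 called 4 of the 32 and 3.2% of all tested genes. Limma-voom called 0 of the 32 and 0.0388% of all, and edgeR without the filter called 7 of the 32 and 3.2% of 30301 genes. Those 7 included Slc2a3 and Ndrg1, which were higher in knockouts. In bulk RNA, fewer cells of a type and less RNA per cell cannot be told apart for any of these genes.

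Single libraries stood out. WT 2 was the highest library for 22 of the 32 genes (24.6% of all tested genes), and a knockout was the lowest for 29 (47.7%). WT 3 was the lowest wild type for 21 genes. Knockout A lay within the wild-type range for 17 of the 32, knockout B for 9 and knockout C for 5. The count for WT 3 and these for the knockouts were not taken over all tested genes, so whether they are particular to the 32 was not tested. The 3 knockouts lay below every wild type for 7 genes (10.4% of all tested genes) and above every wild type for 1 (11.5%). In place of 13 genes, 7 were lower at an unadjusted p below 0.05 once WT 2 was omitted (5.02% of all tested genes), 4 once knockout B was (4.69%), and 7 once knockout C was (5.31%). The count was 0 when the fit carried the Gh division as a term (2.69% of all tested genes) and 0 among the 4 libraries with Gh (1.88%). In both fits knockout A alone stands for the genotype, and few genes of any kind were lower at that p. With the term, 27 of the 32 were below 0, against 50.9% of all tested genes, with a median of -0.10.

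**Figure D1:**
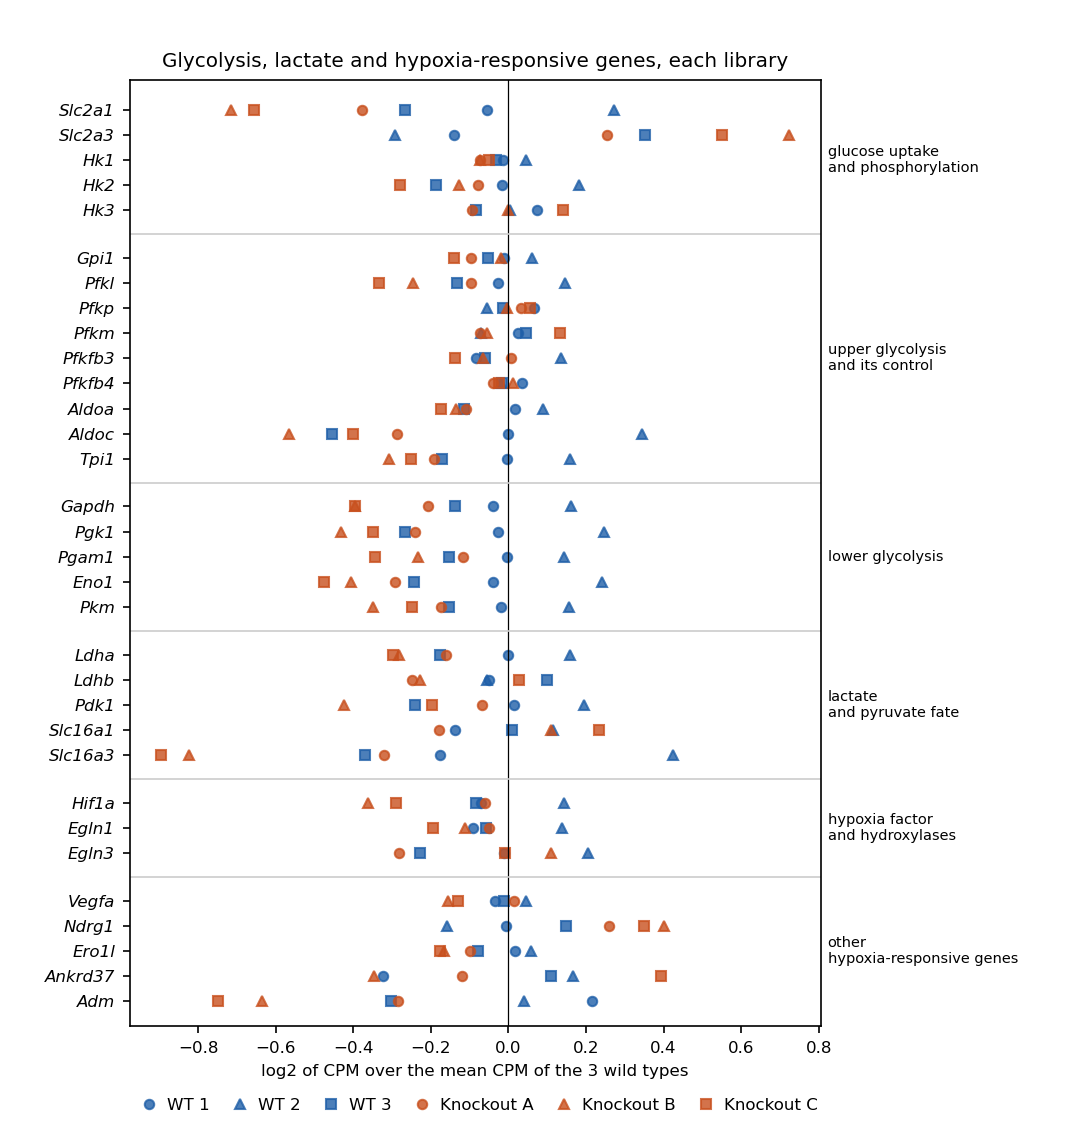
Level of each gene in each library, as the log2 ratio of its CPM to the mean CPM of the 3 wild types, with genes grouped by role. Blue symbols are wild types and orange symbols are knockouts. WT 2 (blue triangle) is the highest library for 22 of the 32 genes. Knockout A (orange circle) lies within the wild-type range for 17, a count not taken over all tested genes.

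Glucose enters these cells by facilitative transporters and is trapped by hexokinases. Slc2a1 encodes GLUT1, the basal glucose transporter, and spans bases 119108711 to 119137983 of chromosome 4 (GRCm38, plus strand). It was at 83.7, 105 and 72.3 CPM in wild types and at 67.0, 53.0 and 55.2 CPM in knockouts. The groups did not overlap, and knockout A was close to WT 3. Wild types averaged 87.0 ± 16.6 CPM and knockouts 58.4 ± 7.51 CPM (SD, n = 3), and the fitted log2 ratio was -0.57 ± 0.14 (SE; edgeR, adjusted p = 0.159). DESeq2 gave an adjusted p of 0.00295 for the same counts. For this and each other gene of the 32 whose groups did not overlap, an exact permutation test (two-sided) gave 0.1, the lowest value possible with 3 against 3. Without WT 2 the log2 ratio was -0.42, and with the Gh division as a term it was -0.38.

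Slc2a3, which encodes the high-affinity transporter GLUT3, had a log2 ratio above 0. It was at 9.57, 8.62 and 13.5 CPM in wild types and at 12.6, 17.4 and 15.5 CPM in knockouts. WT 3 lay above knockout A, so the groups overlapped, and the log2 ratio was 0.52 ± 0.18 (SE; edgeR, adjusted p = 0.232) and 0.25 with the Gh division as a term. Per length, GLUT1 transcripts outnumbered GLUT3 transcripts in every library. The ratio of their FPKM values (counts scaled to gene length and library size) was 18.1, 25.2 and 11.1 in wild types and 10.99, 6.28 and 7.38 in knockouts. WT 3 and knockout A were thus almost equal. This ratio was read after its values were seen, among 10 ratios within families, and its exact permutation p of 0.1 was 0.5 after Benjamini-Hochberg adjustment over the 10.

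Among the hexokinases, none had an unadjusted p below 0.05. Hk1, the broadly expressed form bound to mitochondria, was at 162, 169 and 160 CPM in wild types and at 156, 156 and 158 CPM in the knockouts. Its groups did not overlap, but the gap was small beside the spread between wild types, and the log2 ratio was -0.07 ± 0.04 (SE; edgeR, adjusted p = 0.475). Hk3, the form of myeloid cells, was at 94.8, 90.4 and 85.0 CPM in wild types and at 84.4, 90.0 and 99.3 CPM in knockouts, with full overlap. Hk2, the insulin- and hypoxia-inducible form, had a log2 ratio of -0.16 (adjusted p = 0.443, edgeR). On the FPKM scale, Hk3 and Hk1 led at 24.6 and 18.8 over all libraries, ahead of Hk2 at 9.78.

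In upper glycolysis, 2 of the 9 genes were lower at an unadjusted p below 0.05 (edgeR), against 8.22% of all tested genes. The fold changes of the 9 ran from -0.41 to 0.03 on the log2 scale. Tpi1, which encodes triose phosphate isomerase, was at 198, 221 and 176 CPM in wild types and at 174, 160 and 167 CPM in knockouts. The groups did not overlap, with WT 3 and knockout A side by side, and the log2 ratio was -0.25 ± 0.08 (SE; edgeR, adjusted p = 0.215). Pfkl, the liver-type phosphofructokinase and the committed step of the pathway, was at 149, 168 and 139 CPM in wild types and at 142, 128 and 120 CPM in knockouts. Knockout A lay within the wild-type range for Pfkl, and the log2 ratio was -0.22 ± 0.08 (SE; edgeR, adjusted p = 0.256).

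The other phosphofructokinases had log2 ratios of 0.03 (Pfkp) and 0.00 (Pfkm, -0.03 without WT 2). Pfkp, the platelet type, had means of 64.6 ± 2.77 CPM in wild types and 65.9 ± 1.34 CPM in knockouts, and Pfkm, the muscle type, had 26.5 ± 1.12 and 26.6 ± 2.16 CPM (SD, n = 3). Both have exons that share bases with a gene on the other strand, Pitrm1 and Senp1, which had more counts than they did. Reads in the shared bases cannot be assigned without known strand. Aldoa, the main aldolase, was the most abundant of the 32 per length, at 258 ± 18.8 FPKM in wild types and 233 ± 6.51 FPKM in knockouts (SD, n = 3). In CPM it was at 967, 1016 and 882 in wild types and at 885, 869 and 846 in knockouts, where knockout A overlapped WT 3 (adjusted p = 0.343, edgeR). Aldoc, the brain-enriched aldolase, was far lower, at 2.85 ± 0.781 and 2.13 ± 0.218 FPKM. Gpi1, which interconverts glucose and fructose phosphates, had a log2 ratio of -0.09. Pfkfb3 and Pfkfb4, whose products make the activator of phosphofructokinase, had log2 ratios of -0.07 and -0.02.

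Lower glycolysis was the group in which each of the 5 genes was lower in knockouts at an unadjusted p below 0.05 (edgeR). Over all tested genes that share was 8.22%. None of the 5 passed the adjusted threshold, and this count describes the group and is not a test. The group's median log2 ratio was -0.33, and its summed level was 1298 to 1678 CPM in wild types and 1145 to 1279 CPM in knockouts. Eno1, which encodes enolase, spans bases 150236721 to 150248879 of chromosome 4. It was at 327, 398 and 284 CPM in wild types and at 275, 254 and 242 CPM in knockouts. The groups did not overlap, and WT 3 was the nearest wild type. Wild types averaged 336 ± 57.1 CPM and knockouts 257 ± 16.4 CPM (SD, n = 3), and the fitted log2 ratio was -0.39 ± 0.11 (SE; edgeR, adjusted p = 0.189). It was -0.25 without WT 2.

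Pgk1, phosphoglycerate kinase, which makes ATP directly, was at 157, 190 and 133 CPM in wild types and at 136, 119 and 126 CPM in knockouts. Knockout A lay just above WT 3, and the log2 ratio was -0.34 ± 0.12 (SE; edgeR, adjusted p = 0.232). Without WT 2 it was -0.20. Pkm, pyruvate kinase, was at 890, 1006 and 812 CPM in wild types and at 800, 709 and 760 CPM in knockouts, which did not overlap (log2 ratio -0.26 ± 0.09 SE; edgeR, adjusted p = 0.227). Pgam1, phosphoglycerate mutase, was at 60.2, 66.6 and 54.2 CPM in wild types and at 55.6, 51.3 and 47.5 CPM in knockouts. Its groups overlapped through knockout A (log2 ratio -0.23 ± 0.09 SE; edgeR, adjusted p = 0.256).

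Gapdh, which oxidises glyceraldehyde phosphate, was counted far below its neighbours in the pathway. It was at 15.1, 17.4 and 14.1 CPM in wild types and at 13.4, 11.8 and 11.8 CPM in knockouts, without overlap (log2 ratio -0.33 ± 0.10 SE; edgeR, adjusted p = 0.200). On the FPKM scale its wild-type mean was 3.76, against 72.2 for Tpi1 and 71.5 for Pgk1, the enzymes before and after it. Of the 50-base windows in its coding transcripts (GENCODE M21), 58.4% also occur in transcripts of other genes, among them 209 annotated pseudogenes. The 206 of these pseudogenes with a row in the table held 638 to 1131 counts per library in sum, while Gapdh itself held 222 to 405. The same share was 68.0% for Pgk1, 49.5% for Eno1, 41.5% for Pgam1, 23.7% for Pkm, 10.4% for Ldha and 6.83% for Tpi1. Adm had no shared window. Slc16a3 had none in this release, in which Csnk1d begins at base 120961749 of chromosome 11, beyond its end. The deposited table gives Csnk1d a further exon from base 120958990, so its annotation is not GENCODE M21 throughout. How reads with several matches were counted is not given in the sources used here, so the levels of Gapdh, Pgk1, Pgam1 and Eno1 are uncertain, and the part of shared reads in their low or high values was not tested. Gapdh exons also share 68 bases with Iffo1 on the other strand, which had up to 1096 counts. Pkm exons share 767 bases with Gm49759 on the same strand, which had up to 1261 counts.

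**Figure D2:**
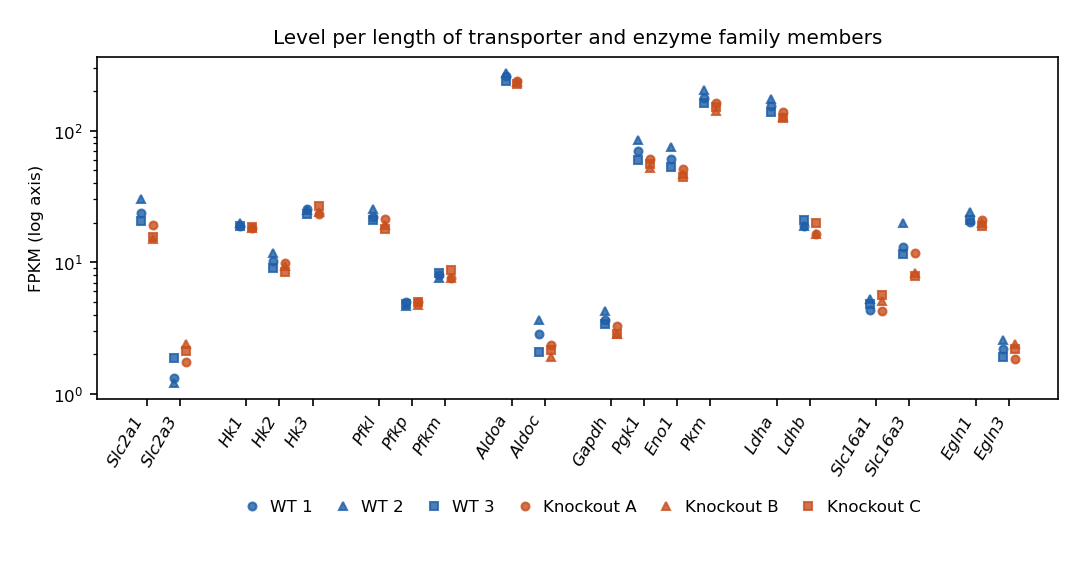
Level per length (FPKM, log axis) of transporters, enzymes and hydroxylases in each library, with wild types in blue and knockouts in orange. Aldoa, Pkm and Ldha are the highest, and Gapdh lies at 2.83 to 4.23 FPKM, below Pgk1 and Eno1 in every library.

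At the fork between lactate and mitochondria, Slc16a3 had the lowest fold change of the 32. It encodes MCT4, the exporter of lactate from glycolytic cells. It was at 69.4, 105 and 60.7 CPM in wild types and at 62.7, 44.3 and 42.1 CPM in knockouts. Knockouts B and C lay below every wild type, and knockout A lay within their range. The log2 ratio was -0.66 ± 0.22 (SE; edgeR, adjusted p = 0.219), and it was -0.38 without WT 2 and -0.32 with the Gh division as a term. In the deposited table its exons share 306 bases with Csnk1d on the other strand, whose counts reached 3867 where Slc16a3 had as few as 833, so its value is less certain. Slc16a1, which encodes the related transporter MCT1, was at 21.2 ± 1.85 CPM in wild types and 22.1 ± 3.15 CPM in knockouts (SD, n = 3).

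Ldha, the lactate dehydrogenase subunit that favours lactate formation, was at 513, 573 and 454 CPM in wild types and at 459, 423 and 418 CPM in knockouts. Knockout A lay just above WT 3, and the log2 ratio was -0.25 ± 0.09 (SE; edgeR, adjusted p = 0.235). Ldhb, the subunit of oxidative tissues, was at 29.6, 29.5 and 32.8 CPM in wild types and at 25.8, 26.1 and 31.2 CPM in knockouts (log2 ratio -0.15, adjusted p = 0.445, edgeR). Per length, Ldha exceeded Ldhb by 8.23, 9.22 and 6.57 times in wild types and by 8.46, 7.67 and 6.35 times in knockouts, so the balance of the subunits overlapped fully. Pdk1, the kinase that shuts pyruvate out of the mitochondria, was at 54.8 ± 8.19 CPM in wild types and 46.9 ± 5.74 CPM in knockouts (SD, n = 3; adjusted p = 0.406, edgeR).

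Of the hypoxia factor and its hydroxylases, Hif1a was at 279, 323 and 276 CPM in wild types and at 280, 228 and 239 CPM in knockouts. Knockout A lay within the wild-type range and the other knockouts below it, for a log2 ratio of -0.23 ± 0.09 (SE; edgeR, adjusted p = 0.272). With the Gh division as a term that value was -0.06, and for Pfkl and Pgam1 it was -0.10 and -0.12. Transcript level is only part of this factor's control, since its protein is regulated by oxygen. Egln1, the main oxygen-sensing prolyl hydroxylase, was at 73.4, 85.9 and 75.1 CPM in wild types and at 75.5, 72.3 and 68.3 CPM in knockouts (log2 ratio -0.12, adjusted p = 0.442, edgeR). Egln3, a hydroxylase that HIF induces, was at 5.91 ± 0.885 and 5.70 ± 0.774 CPM (SD, n = 3), and its log2 ratio of -0.06 turned to 0.06 without WT 2.

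Of the 5 other hypoxia-responsive genes, 2 were lower and 1 was higher at an unadjusted p below 0.05 (edgeR). Over all tested genes, 8.22% were lower and 8.35% were higher at that p. Adm encodes adrenomedullin, a vasodilator peptide, and spans bases 110627661 to 110629820 of chromosome 7. It was at 69.0, 61.2 and 48.2 CPM in wild types and at 48.8, 38.3 and 35.4 CPM in knockouts. WT 3 and knockout A were almost equal, and the other libraries were apart. The log2 ratio was -0.54 ± 0.15 (SE; edgeR, adjusted p = 0.183), -0.52 without WT 2 and -0.28 with the Gh division as a term, and DESeq2 gave an adjusted p of 0.0135. Ero1l encodes an enzyme that drives the formation of disulfide bonds in the endoplasmic reticulum. It was at 79.9, 82.1 and 74.7 CPM in wild types and at 73.7, 70.3 and 69.9 CPM in knockouts. Its groups did not overlap, by a small margin (log2 ratio -0.15 ± 0.05 SE; edgeR, adjusted p = 0.235).

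Ndrg1, a stress- and hypoxia-induced gene also tied to differentiation, was the only one of the 32 whose knockouts all lay above the wild types. It was at 33.0, 29.7 and 36.7 CPM in wild types and at 39.6, 43.7 and 42.2 CPM in knockouts. The log2 ratio was 0.34 ± 0.08 (SE; edgeR, adjusted p = 0.159), 0.26 without WT 2 and 0.26 with the Gh division as a term. Vegfa, the angiogenic growth factor and a standard HIF target, was at 187, 197 and 190 CPM in wild types and at 193, 172 and 175 CPM in knockouts (log2 ratio -0.09, adjusted p = 0.473, edgeR). Ankrd37 was near 1 CPM in each library, at 0.879 ± 0.154 and 0.885 ± 0.240 CPM (SD, n = 3), and its exons share 57 bases with the far more counted Ufsp2.

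**Figure D3:**
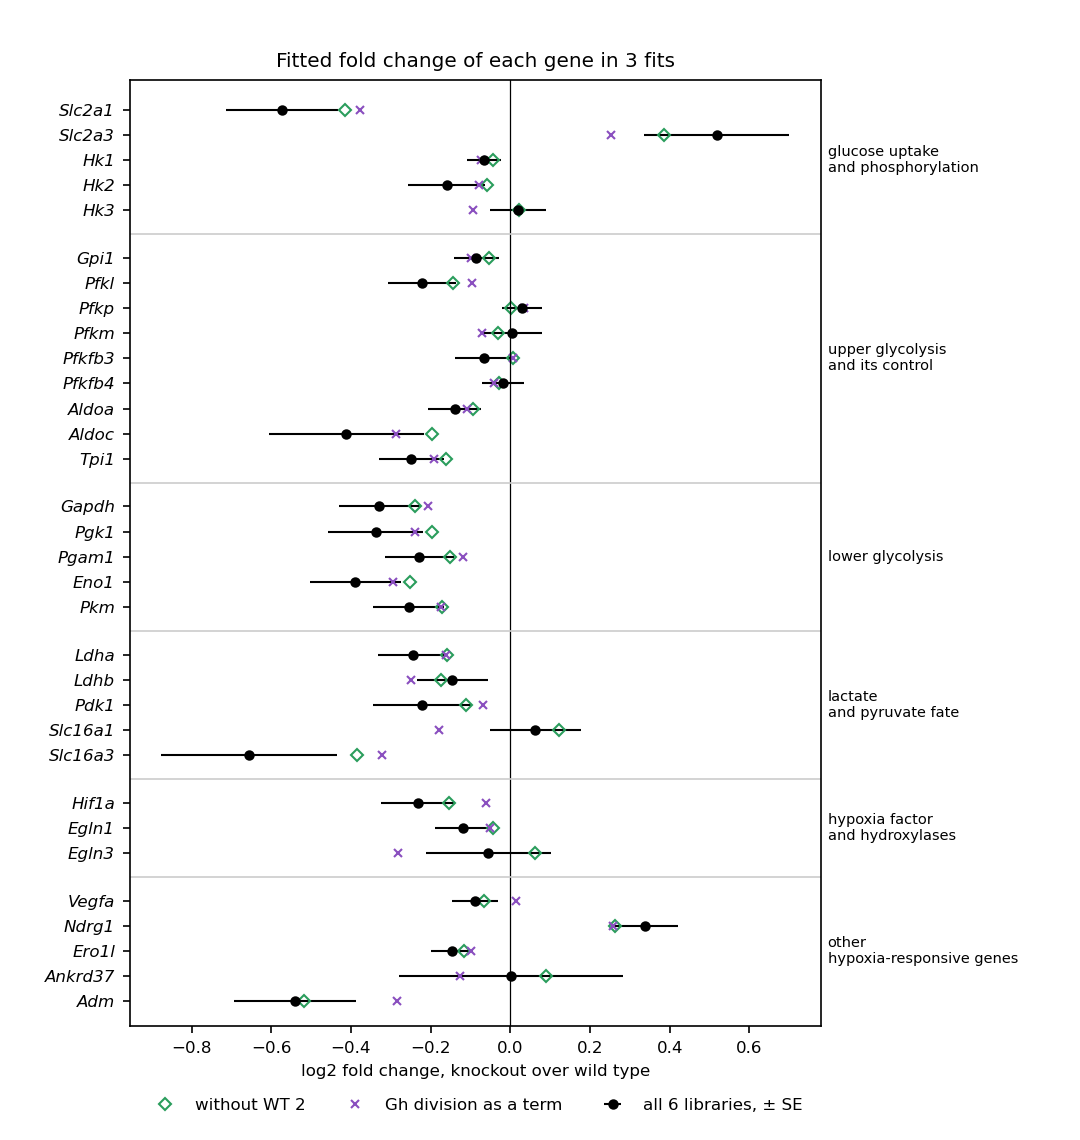
Fitted log2 ratio of each gene, knockout over wild type, with all 6 libraries (black, bars are SE), without WT 2 (green) and with the Gh division of libraries as a term (purple). Slc16a3, Slc2a1, Adm and Aldoc lie lowest with all libraries, and Slc16a3 moves from -0.66 to -0.38 and -0.32 in the other fits.

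Wider lists placed these genes in their pathways, and 0 of their tested genes passed the adjusted threshold (edgeR). Of 47 genes in the branches of glycolysis, 36 were tested, with a median log2 ratio of -0.03. At an unadjusted p below 0.05, 5 of the 36 were higher and 5 lower, against 8.35% and 8.22% of all tested genes. Mpc2, a subunit of the mitochondrial pyruvate carrier, was at 24.5 ± 0.989 CPM in wild types and 29.7 ± 1.61 CPM in knockouts (SD, n = 3; log2 ratio 0.28, adjusted p = 0.158, edgeR), without overlap. Pck2, the mitochondrial enzyme that makes phosphoenolpyruvate, was at 101 ± 5.57 and 83.1 ± 5.68 CPM (-0.27, adjusted p = 0.159). Pdk4, another gate on pyruvate oxidation, was at 116 ± 9.08 and 95.5 ± 9.54 CPM (-0.28, adjusted p = 0.195). Bsg, the chaperone of the lactate transporters, and Taldo1, of the pentose phosphate pathway, were the most abundant per length, with log2 ratios of -0.08 and -0.06.

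Of 45 genes in hypoxia signalling, 44 were tested, with a median of -0.04. At an unadjusted p below 0.05, 3 of the 44 were higher and 10 lower, against 8.35% and 8.22% of all tested genes. Mif, a cytokine gene that HIF induces, was at 73.9 ± 9.74 CPM in wild types and 58.0 ± 1.25 CPM in knockouts (SD, n = 3; log2 ratio -0.35, adjusted p = 0.161, edgeR). Arnt2, a partner of HIF factors, was at 7.74 ± 1.30 and 4.97 ± 0.853 CPM (-0.64, adjusted p = 0.171). Lox, which cross-links collagen, was at 5031 ± 219 and 3945 ± 557 CPM (-0.35, adjusted p = 0.202). Cxcl12, the stromal chemokine, was at 2397 ± 956 and 4540 ± 460 CPM (0.92, adjusted p = 0.192). Over all tested genes the median was 0.00.

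Marker genes of other cells also differed between the libraries, none of the smooth muscle, adipocyte or stromal ones past the adjusted threshold (edgeR). At an unadjusted p below 0.05, 8.22% of all tested genes were lower in knockouts and 8.35% were higher. The 4 smooth muscle markers were each lower in knockouts at an unadjusted p below 0.05, and their sum was 3680 to 5438 CPM in wild types, highest in WT 2 and lowest in WT 3, and 2865 to 3816 CPM in knockouts. Acta2, smooth muscle actin, made up most of it at 4312 ± 795 CPM in wild types and 3168 ± 437 CPM in knockouts (SD, n = 3). Of the 6 adipocyte markers, 5 were higher at an unadjusted p below 0.05, and their sum ran from 385 CPM in WT 2 to 881 CPM in WT 1 among wild types and 1113 to 1409 CPM in knockouts. The 7 marrow stroma markers, 4 of them higher at an unadjusted p below 0.05, summed to 2037 CPM in WT 2, up to 4144 CPM in the other wild types and 5099 to 6087 CPM in knockouts. None of these markers was at 0 in every library. The 9 monocyte and macrophage markers summed to 6583 to 7010 CPM in wild types and 6942 to 7661 CPM in knockouts. Of the 9, 3 had a log2 ratio below 0, with a median of 0.14, and 2 were higher and 2 lower at an unadjusted p below 0.05 (edgeR). The 2 lower ones passed the adjusted threshold: Vsig4 fell from 6.35 ± 0.962 to 1.60 ± 0.102 CPM (edgeR, adjusted p = 0.0142; SD, n = 3) and Cd163, a scavenger receptor, from 72.4 ± 6.40 to 43.3 ± 4.36 CPM (adjusted p = 0.0486). Of 7 plasma cell markers, 5 were tested and 3 rose (edgeR): Jchain from 0.818 ± 0.566 to 11.3 ± 1.05 CPM (adjusted p = 0.0142), Igha from 8.52 ± 5.09 to 98.3 ± 5.33 CPM (0.0142) and Igkc from 5.23 ± 3.73 to 56.0 ± 7.15 CPM (0.0302), in knockout A as in B and C. The plasma cell list summed to 352 to 392 CPM in wild types and 521 to 550 CPM in knockouts. Of 7 osteoclast markers, 5 were tested and 1 rose, Atp6v0d2, a proton pump subunit, from 18.4 ± 1.63 to 38.3 ± 5.69 CPM (edgeR, adjusted p = 0.0318), and the list summed to 64.4 to 73.1 CPM and 90.7 to 112 CPM. The 5 chondrocyte markers summed to 326 to 478 CPM in wild types and 242 to 284 CPM in knockouts. Of the 4 tested, 1 was higher and 1 lower at an unadjusted p below 0.05 (edgeR, lowest adjusted p = 0.0619). Sums of the osteoblast, endothelium and megakaryocyte lists overlapped between the groups. The macrophage, plasma cell and osteoclast genes, and the chondrocyte list, were named after their values were seen. The part of any of these cells in the members' values was not tested. The 7 skeletal muscle markers summed to 12.1 to 17.9 CPM over the 6 libraries, and the part of muscle was not tested either.

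**Figure D4:**
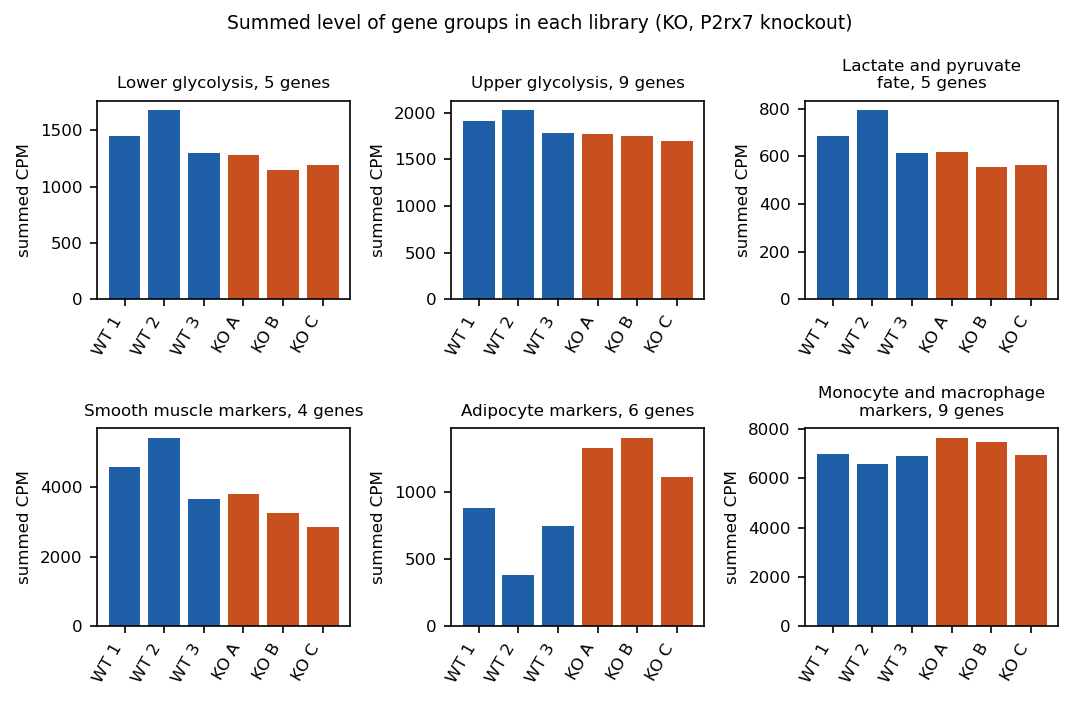
Summed CPM of 3 groups of the 32 genes and of 3 marker lists in each library, wild types in blue and knockouts in orange, with axes from 0. Lower glycolysis and the smooth muscle markers are both highest in WT 2, where the adipocyte markers are lowest.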

How the data were processed

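Per the file headers, the authors deposited 1 table of gene positions, raw counts and FPKM values for the 6 libraries. Per the submitters' processing notes, the genome is GRCm38, also called mm10. The sources used here give no aligner, counter, annotation or use of strand. The deposited FPKM values equal count over summed exon length and an effective library size in 100% of values above 0 (tolerance 1e-06). Per the labels' protocols, libraries were made from total RNA with a SMARTer mRNA kit.

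The 32 members and all lists were chosen with earlier results of these data known. Counts were filtered by filterByExpr, scaled by TMM and tested two-sided with edgeR 4.0.16 (glmQLFit, glmQLFTest) in R 4.3.3, with Benjamini-Hochberg adjustment over 15478 genes and a threshold of 0.05. The script was tested on simulated data. A value in every library is given for members with an unadjusted p below 0.05 or groups without overlap, and for the most abundant per role. From the wider lists the genes of smallest p and highest FPKM are named. Levels of different genes are compared in FPKM only. The 3 mice of a genotype are the replicates. The 18 alternatives covered scaling, filters, DESeq2 1.42.0, limma 3.58.1, each library left out, and the Gh division of libraries.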

Additional observations from a re-analysis of the deposited data

How the results depend on the processing

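No paired analysis was possible because wild types carry numbers and knockouts letters in the labels. The median log2 ratio of the 32 genes stayed below 0 in each of the 18 alternatives, and leaving out each library in turn gave -0.19 to -0.10. Leaving out a library gave 0 to 172 changed genes overall (16 with all libraries; edgeR, adjusted p below 0.05), 0 of the 32 past that threshold, 4 to 17 of them lower at an unadjusted p below 0.05 (4.69% to 10.6% of all tested genes), and 24 to 29 below 0 (48.4% to 49.9%). The number of changed genes was 970 of 30301 without the filter and, of 15478, 496 by DESeq2, 6 by limma-voom, 10 and 2 by limma on log2(FPKM + 1) and log2(FPKM + 0.1), and 0 with the Gh division as a term or among libraries with Gh. Of the 32 genes, 7 passed without the filter and 4 by DESeq2, in either direction. Slc2a3 and Ndrg1, higher in knockouts, were among the 7. In both fits on the Gh division, which rest on knockout A alone, 0 of the 32 were lower at an unadjusted p below 0.05. The cause of these shifts was not tested.

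Log2 ratios near 0 changed sign. Pfkm turned from 0.0049 to -0.00012 with DESeq2 size factors, -0.0027 without the filter, -0.00013 by DESeq2, -0.0041 and -0.0047 by limma at the larger and smaller pseudocount, -0.072 with the Gh division as a term and -0.075 among libraries with Gh. Ankrd37 turned from 0.0020 to -0.0032, -0.0057, -0.0021 and -0.012 with the size factors, without the filter and by limma at both pseudocounts, and to -0.014 by limma-voom, -0.127 with the term and -0.129 among libraries with Gh. With the term and among libraries with Gh, Hk3 was at -0.093 and -0.096, Slc16a1 at -0.179 and -0.182, Pfkfb3 at 0.0056 and 0.0024, and Vegfa at 0.015 and 0.011. Leaving out a library gave -0.064 to 0.043 for Pfkm, -0.229 to 0.144 for Ankrd37, -0.046 to 0.072 for Hk3, -0.029 to 0.173 for Slc16a1, -0.111 to 0.0074 for Pfkfb3 and -0.159 to 0.062 for Egln3.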
